A study of Mus musculus with 6 samples.

Results

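The receptors through which neutrophils bind IgG, and the chain that carries their signal, were followed as 7 genes in RNA-seq of neutrophils from the tumour-bearing mouse uterus. The genes were chosen by symbol: the activating receptors Fcgr1, Fcgr3 and Fcgr4, the inhibitory receptor Fcgr2b, the adaptor chains Fcer1g and Tyrobp, and the kinase Syk. All 7 matched 1 annotated gene each among the 43432 gene IDs of the count tables, and all 7 passed the filter on low counts, which left 12908 genes for testing. The hyperoxia group (3 libraries) came from mice kept at 60% oxygen in a chamber from postnatal day 18 to day 28, and the normoxia group (3 libraries) from mice kept in ambient air. Every mouse was 4 weeks old, of the C57BL/6 strain and of the PRPL genotype, in which Cre is expressed from the progesterone receptor gene, so both groups carried the same alleles. Neutrophils were sorted from the digested whole uterus as CD11b+ and CD45+ cells with high Ly6G. The comparison asks what raised oxygen around the host altered in neutrophil RNA.

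As background, an IgG-coated target crosslinks the activating receptors, which lack a signalling tail of their own in the mouse and rely on the dimeric Fcer1g chain. Src family kinases phosphorylate the tyrosine activation motif (ITAM) of that chain, Syk docks there, and phagocytosis, oxidant production and degranulation follow. Fcgr2b carries an inhibitory motif (ITIM) and recruits the phosphatase SHIP-1, encoded by Inpp5d, which restrains the signal. Tyrobp, also called DAP12, is an ITAM chain of the same kind that serves other myeloid receptors such as TREM1.

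Libraries held 38683293 to 61715617 gene counts, and neutrophil markers dominated them: all 9 listed markers were detected in all 6 libraries, with S100a8 and S100a9 the most abundant. Markers of other cell types were present. Summed over 15 monocyte and macrophage markers, the level was 2295, 3527 and 3159 CPM (counts scaled to library size after TMM correction) in hyperoxia, against 1753, 1566 and 1555 CPM in normoxia. Of those 15 markers, 14 had a log2 difference above 0, as had 53.7% of all tested genes, and 10 were higher at an unadjusted p under 0.05 in edgeR's quasi-likelihood test, as were 9.1% of all. Mrc1 and Mertk reached the level of the low-count filter, 0.225 CPM, in all 3 hyperoxia libraries but in fewer than 3 normoxia libraries. These 2 were thus tested because they were high in hyperoxia. The second hyperoxia library stood apart with 103095 CPM of summed neutrophil markers, where the 5 others held 32877 to 60940.1. In sorted bulk samples, fewer cells of a type and less RNA per cell cannot be told apart.

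Tyrobp and Fcer1g, the ITAM chains, were among the most abundant transcripts of these neutrophils, and Fcgr3 was by far the leading receptor. Levels of different genes were compared as CPM per kilobase of merged exons. Tyrobp averaged 4646 ± 128 in hyperoxia and 5285 ± 258 in normoxia on this per-length scale (SD, n = 3 each), and ranked between 12 and 16 among the 12908 tested genes in every library. Fcer1g averaged 3084 ± 271 in hyperoxia and 3480.4 ± 161 in normoxia, with ranks of 20 to 30. Fcgr3, the low-affinity receptor that binds IgG immune complexes, averaged 1498 ± 284 and 1692 ± 83.2, with ranks of 41 to 49. The next gene in the order, Fcgr4, a receptor for IgG2 subclasses, averaged 343 ± 76.3 in hyperoxia and 374 ± 58.2 in normoxia.

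Fcgr1, the high-affinity IgG receptor, stood a further step down, with a per-length level of 49.4 ± 19.0 in hyperoxia and 37.0 ± 9.37 in normoxia. Syk averaged 18.5 ± 5.81 and 17.8 ± 2.76, and the inhibitory Fcgr2b was lowest at 8.68 ± 2.31 and 5.74 ± 0.933. The order Tyrobp, Fcer1g, Fcgr3, Fcgr4, Fcgr1, Syk, Fcgr2b was the same in all 6 libraries. For no neighbours in that order did the ranges of mean ± SD meet in either group. The smallest ratio between neighbours was that of Syk to Fcgr2b in the second hyperoxia library, 1.21, and the same ratio was 4.26 in the first normoxia library. Between Tyrobp and Fcer1g the ratio stayed within 1.40 to 1.68, and between Fcgr4 and Fcgr1 it ran from 6.17 to 12.3. Merged exons span 5790 bp in Fcgr2b and 9362 bp in Syk, and isoforms were not resolved.

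**Figure D1:**
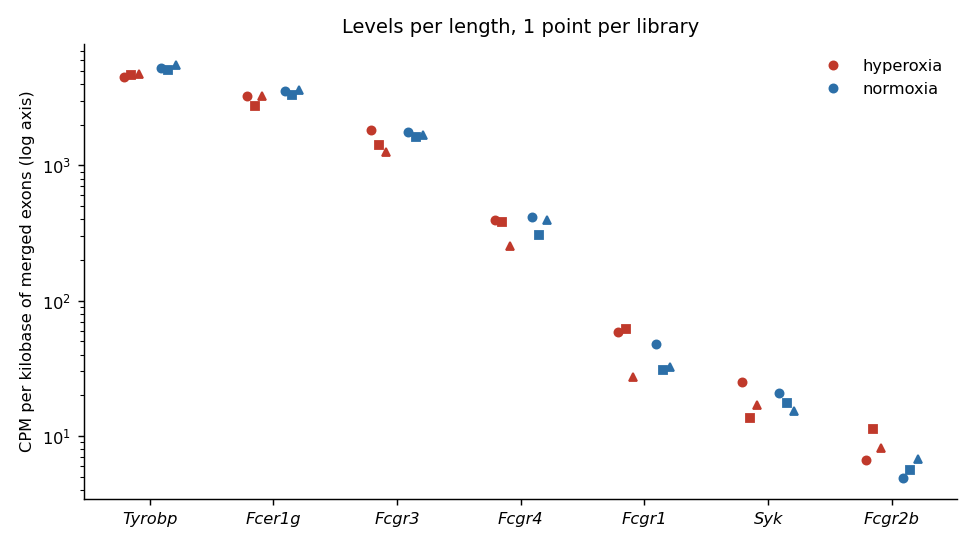
CPM per kilobase of merged exons (log axis) for the 7 genes, with 1 point per library, hyperoxia in red and normoxia in blue (circle, square and triangle for replicates 1, 2 and 3). The genes stand in the same order in all 6 libraries, from Tyrobp, at 4519.8 to 5554, to Fcgr2b, at 4.88 to 11.2.

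The promoters of the receptors are shown because the 4 genes differ so widely in level in the same libraries. The sequences are from RefSeq (GRCm38.p6), 250 bases before to 50 after an annotated start, which 6 of the 7 genes had; Tyrobp had no entry. Capitals mark GAGGAA on either strand, written TTCCTC where it runs on the other strand, the core of sites for PU.1, a transcription factor of myeloid cells. Each sequence is given on the strand of its gene.
Fcgr1, chr3:96293920-96294219, minus strand: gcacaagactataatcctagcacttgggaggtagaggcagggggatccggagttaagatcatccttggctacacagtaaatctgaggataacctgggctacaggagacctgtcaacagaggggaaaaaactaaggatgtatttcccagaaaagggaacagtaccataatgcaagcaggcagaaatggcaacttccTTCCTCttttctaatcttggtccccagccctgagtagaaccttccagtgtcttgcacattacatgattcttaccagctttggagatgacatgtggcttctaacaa
Fcgr3, chr1:171059354-171059653, minus strand: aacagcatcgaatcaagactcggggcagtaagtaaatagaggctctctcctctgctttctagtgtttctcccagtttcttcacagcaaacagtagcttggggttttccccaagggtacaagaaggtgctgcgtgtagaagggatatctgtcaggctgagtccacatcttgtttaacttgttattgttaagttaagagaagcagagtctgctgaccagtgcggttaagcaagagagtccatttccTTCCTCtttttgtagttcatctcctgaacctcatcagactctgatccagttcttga
Fcgr4, chr1:171018676-171018975, plus strand: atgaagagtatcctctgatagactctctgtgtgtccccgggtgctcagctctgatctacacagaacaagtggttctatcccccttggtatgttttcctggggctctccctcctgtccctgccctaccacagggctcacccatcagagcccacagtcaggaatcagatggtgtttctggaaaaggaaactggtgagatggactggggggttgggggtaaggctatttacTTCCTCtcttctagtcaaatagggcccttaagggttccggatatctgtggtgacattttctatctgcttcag
Fcgr2b, chr1:170976022-170976321, minus strand: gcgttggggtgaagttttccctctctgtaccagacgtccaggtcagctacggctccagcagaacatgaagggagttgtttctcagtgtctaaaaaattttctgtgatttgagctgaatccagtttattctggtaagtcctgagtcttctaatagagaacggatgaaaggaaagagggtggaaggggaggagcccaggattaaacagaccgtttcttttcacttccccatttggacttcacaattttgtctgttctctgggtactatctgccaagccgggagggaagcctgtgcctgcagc

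Each activating receptor had 1 match, whose first base lies at -55 from the start in Fcgr1, -6 in this Fcgr3 entry and -22 in Fcgr4, whereas the Fcgr2b window held 0. Fcer1g held 0 as well, and of the annotated Syk starts the upstream one held 0 and the downstream one 1. Over all 32851 promoters, 28.3% held the motif. In Fcgr1 and Fcgr3 the match lies in an identical run of 14 bases, ttccttcctctttt. That run was the longest shared by any pair of these 6 genes when 1 window per gene was compared. The downstream Syk window and the Fcgr3 entry printed here were not among the windows compared. The interferon-gamma activated site TTCNNNGAA, present in 8.3% of promoters, matched, of the 6 genes, in Fcgr1 alone, at -109 from its start. Of the hypoxia response core, which starts with A or G, only the form ACGTG was searched. ACGTG, present in 19.6% of promoters, matched in none of the 6 genes' windows. The form GCGTG was not searched over all promoters, and it does occur in the windows of Fcgr3, Fcer1g and the downstream Syk start. Matches describe letters in these windows and do not show binding.

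For none of the 7 genes did the difference between housing conditions pass the test. In edgeR's quasi-likelihood test, 0 of the 7 passed an adjusted p of 0.05, where the share called over all genes was 0.0% higher and 0.0% lower in hyperoxia. DESeq2 also called 0 of the 7, against a background of 3.14% of genes higher and 0.273% lower. An unadjusted p under 0.05 was reached by 1 of the 7, Fcgr2b, in the higher direction and by 0 in the lower, with 9.1% of all tested genes higher and 3.91% lower at that threshold. The log2 difference was above 0 for 3 genes and below 0 for 4, with a median of -0.12, beside a median of 0.04 over all genes tested, of which 53.7% were above 0 and 46.3% below. Groups of libraries did not overlap for 0 of the 7 genes in the higher direction, beside 9.57% of all genes, and for 2 in the lower direction, Fcer1g and Tyrobp, beside 10.3%. The 7 genes together held 0.887%, 0.912% and 0.934% of library counts in hyperoxia, against 1.004%, 1.03% and 1.06% in normoxia, mostly through Tyrobp, Fcer1g and Fcgr3. Adjusted p values of the 7 ran from 0.361 to 0.958, and standard errors from 0.20 to 0.33 on the log2 scale. The labels do not say that libraries came from separate mice, so these p values measure the spread between samples, which may be technical in part.

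**Figure D2:**
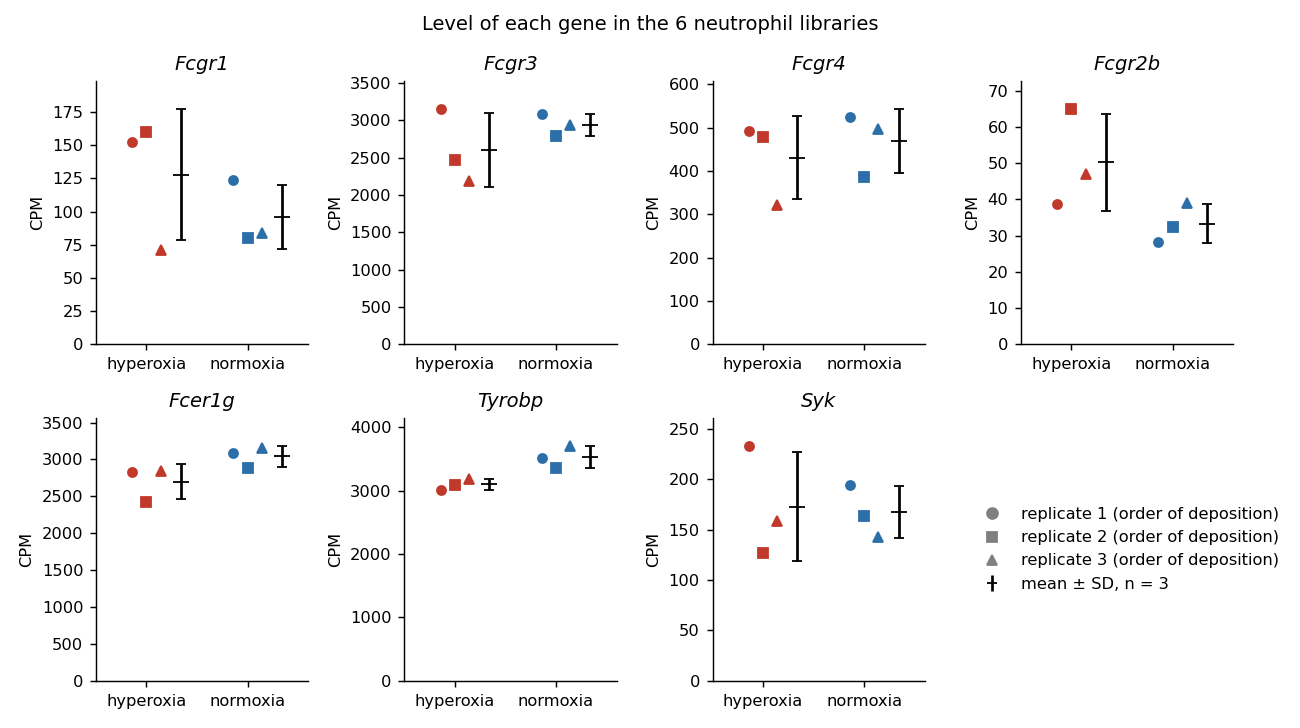
CPM of each gene by library, hyperoxia in red and normoxia in blue, with the mean and SD of 3 libraries in black; symbols mark replicates in the order of deposition. Tyrobp and Fcer1g show hyperoxia libraries below all normoxia libraries, while Fcgr2b has its highest values, 64.9 and 47.1 CPM, in hyperoxia.

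Among the activating receptors, Fcgr3 (ENSMUSG00000059498, GRCm38 chromosome 1, 171051174 to 171064935, minus strand) was counted at 3148, 2468 and 2188 CPM in hyperoxia and at 3084, 2796 and 2932 CPM in normoxia. The first hyperoxia library was the highest of the 6 and the other two the lowest, so the groups overlap. The log2 difference was -0.18 ± 0.23 (SE; 95% interval -0.70 to 0.35), and the adjusted p in edgeR was 0.796. Normoxia libraries were tight, with a coefficient of variation of 4.91%, against 19.0% among hyperoxia libraries.

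Fcgr4 (ENSMUSG00000059089, chromosome 1, 171018920 to 171029761, plus strand) lies between Fcgr2b and Fcgr3 on that chromosome. Its CPM was 493, 479 and 320.5 in hyperoxia, against 524, 387 and 498 in normoxia. The third hyperoxia library was the lowest of the 6, and the groups overlap. The log2 difference of -0.12 ± 0.25 (SE; 95% interval -0.69 to 0.44, adjusted p of 0.88 in edgeR) turned to 0.05 without that library and to 0.03 without the first normoxia library.

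Fcgr1 (ENSMUSG00000015947, chromosome 3, 96282909 to 96293969, minus strand) is known as an interferon-gamma-induced gene. It was counted at 153, 160.0 and 71.1 CPM in hyperoxia, against 124, 80.1 and 83.5 CPM in normoxia. Hyperoxia held both the highest values and the lowest one, a coefficient of variation of 38.6%, the widest of the 7 genes. The log2 difference was 0.42 ± 0.33 (SE; 95% interval -0.35 to 1.18), and the adjusted p in edgeR was 0.642. It was 0.71 without the third hyperoxia library, 0.72 without the first normoxia library and 0.25 without the second hyperoxia library, with adjusted p values of 0.265, 0.634 and 0.799.

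Fcgr2b (ENSMUSG00000026656, chromosome 1, 170958617 to 170976547, minus strand) had the lowest p of the 7. Its CPM was 38.7, 64.9 and 47.1 in hyperoxia, against 28.2, 32.5 and 39.0 in normoxia. All 3 hyperoxia libraries lay above the normoxia mean of 33.2 CPM, but the first of them fell just short of the third normoxia library, so the groups overlap by that pair. The fold was 1.51 (95% interval 1.02 to 2.23), or 0.60 ± 0.25 (SE) as a log2 difference. The unadjusted p in edgeR was 0.0398 and the adjusted p 0.361, while DESeq2 gave 0.60 with an adjusted p of 0.356. Over 14 refits the unadjusted p ran from 0.0136 to 0.111 and was over 0.05 in 5, namely with sample quality weights, with scaling by library size alone, and without the second hyperoxia, the first normoxia or the second normoxia library. Without the second hyperoxia library the difference was 0.39 with an adjusted p of 0.418, and without the first it was 0.79 with an adjusted p of 0.155.

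Transcripts of Fcgr2b and Fcgr3 share sequence: 9.58% of the 50-base stretches of Fcgr3 transcripts also occur in Fcgr2b, and 2.92% of those of Fcgr2b in Fcgr3. Counting all other genes, 6.95% of Fcgr2b stretches were shared, so most of the shared ones do not occur in Fcgr3. No such stretch of Fcgr1, Fcgr4, Fcer1g, Syk or Tyrobp occurred in another gene's transcripts. Since Fcgr3 had at least 103907 counts in every library and Fcgr2b at most 4141, the placement of shared reads bears on Fcgr2b, and how they were counted is not given in the sources used here. A further 155 bp of Fcgr2b exons lie opposite the antisense gene Gm38204, which had at most 1 count in a library.

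Within the receptor pool, the share of Fcgr2b in the summed per-length level of the 4 receptors was 0.295%, 0.598% and 0.524% in hyperoxia, against 0.217%, 0.287% and 0.317% in normoxia. Hyperoxia libraries 2 and 3 exceeded every normoxia library, and the first lay inside the normoxia range. The summed activating receptors outweighed Fcgr2b by 338-fold, 166-fold and 189.7-fold in hyperoxia, against 459.7-fold, 347-fold and 315-fold in normoxia. Fcgr3 alone made up 75.8% to 81.3% of the pool in hyperoxia and 79.1% to 82.4% in normoxia. These shares are a description of the chosen genes and carry no test.

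Fcgr2b is also expressed by macrophages, B cells and some endothelial cells, and markers of those cells were present. The 2 hyperoxia libraries with the highest Fcgr2b share also had the highest macrophage marker sums, 3527 and 3159 CPM. Summed over 7 B cell markers, the level was 36.5, 428 and 61.3 CPM in hyperoxia, against 31.5, 50.2 and 32.3 CPM in normoxia, with 386 of the 428 CPM from the immunoglobulin gene Igkc and Pax5 at no more than 2 counts in any library. Endothelial markers summed to 24.9 to 53.0 CPM in hyperoxia and 8.52 to 12.5 CPM in normoxia. At an unadjusted p under 0.05 in edgeR, 6 of 7 were higher (9.1% of all tested genes). That count is fixed in part by the filter on low counts. Cdh5, Kdr, Tek, Cldn5 and Emcn reached its level of 0.225 CPM in all 3 hyperoxia libraries but in fewer than 3 normoxia libraries. They were thus tested because they were high in hyperoxia. The part of these cells in the Fcgr2b values was not tested.

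**Figure D3:**
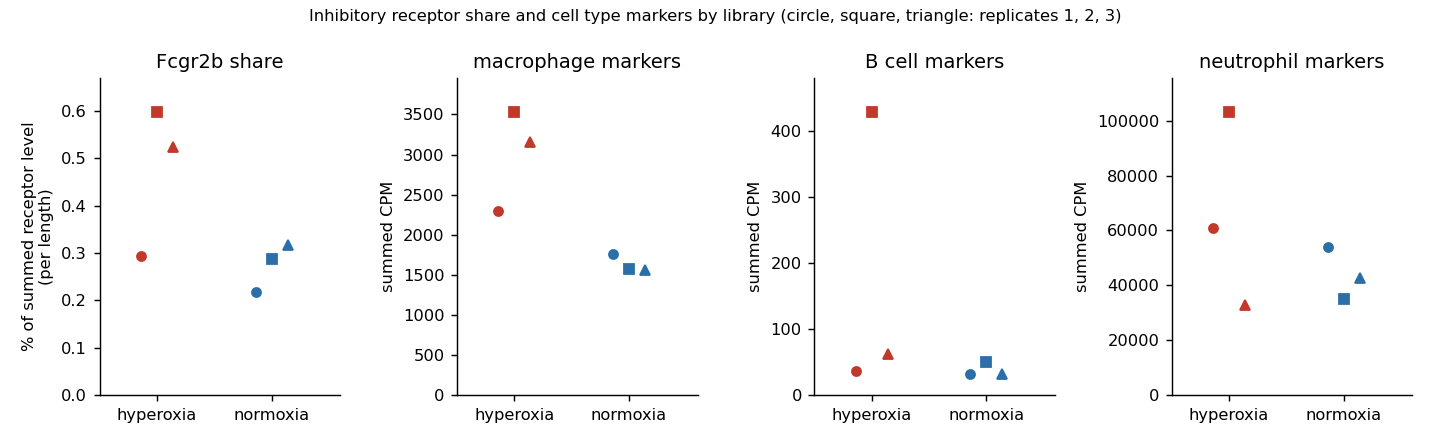
Share of Fcgr2b in the summed per-length level of the 4 receptors (percent), and summed CPM of macrophage, B cell and neutrophil markers, with 1 point per library and hyperoxia in red, left of normoxia in blue. Fcgr2b shares of 0.598% and 0.524% and macrophage sums of 3527 and 3159 CPM belong to the same 2 hyperoxia libraries.

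Both adaptor chains lay slightly lower in hyperoxia in all libraries, within the error of the test. Fcer1g (ENSMUSG00000058715, chromosome 1, 171229572 to 171234365, minus strand) was counted at 2827, 2422 and 2838 CPM in hyperoxia and at 3084, 2885 and 3157 CPM in normoxia. Every hyperoxia library lay below every normoxia library, a pattern shown by 10.3% of all tested genes. The gap was small: the log2 difference was -0.17 ± 0.21 (SE; 95% interval -0.65 to 0.30), and the adjusted p in edgeR was 0.774.

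Tyrobp (ENSMUSG00000030579, chromosome 7, 30413760 to 30417585, plus strand) had 3015, 3097 and 3186 CPM in hyperoxia, against 3509.6, 3362 and 3705 CPM in normoxia. Its groups did not overlap either, in the same direction, and its coefficient of variation was 2.77% in hyperoxia, the lowest of the 7 genes there, and 4.88% in normoxia. The log2 difference was -0.19 ± 0.20 (SE; 95% interval -0.65 to 0.28), and the adjusted p in edgeR was 0.749. On the per-length scale, the Tyrobp to Fcer1g ratio was 1.40, 1.68 and 1.47 in hyperoxia, against 1.49, 1.53 and 1.54 in normoxia.

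Syk (ENSMUSG00000021457, chromosome 13, 52583173 to 52648792, plus strand), the kinase that docks on both chains, was counted at 233, 127 and 159 CPM in hyperoxia, against 194, 164 and 143 CPM in normoxia. The highest and the lowest of the 6 values were both in hyperoxia. The log2 difference of 0.05 ± 0.27 (SE; 95% interval -0.56 to 0.66, adjusted p of 0.958 in edgeR) became -0.20 without the first hyperoxia library. In that library Syk and Fcgr3 both had their highest value of the series.

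**Figure D4:**
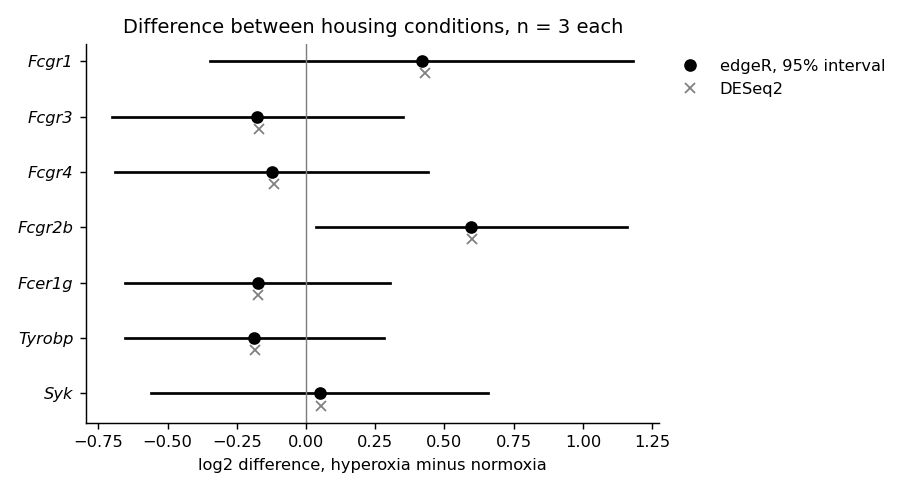
Log2 difference, hyperoxia minus normoxia, of the 7 genes by edgeR (black points, bars for the 95% interval) and by DESeq2 (grey crosses), 3 libraries per group. Of the 7 intervals, only that of Fcgr2b, a fold of 1.02 to 2.23, lies wholly to the right of no difference, before adjustment for the number of genes tested.

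Profiles over the 6 libraries were compared by the root mean square distance of log2 CPM, each gene centred on its own mean. Among the 7 genes, Fcer1g and Tyrobp were the closest pair at 0.08, followed by Fcgr3 and Fcgr4 at 0.16 and Fcgr3 and Fcer1g at 0.16. Fcgr2b and Syk were the farthest pair, at 0.60. The gene of the set nearest to Fcgr2b was Tyrobp, at 0.45.

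Over 5180 other genes whose average log2 CPM reached 3, those with the most similar profile are named with their distance, and no test applies. Fcgr1 was closest to the glycogen phosphorylase gene Pygl (0.06), then Pcmt1 (0.07) and Mctp1 (0.08), against a spread of 0.46 of its own. Fcgr2b was closest to the ribosomal protein gene Rpl4 (0.09), then Rars (0.10) and Blvrb (0.11), against a spread of 0.38. The genes nearest to Fcgr3 were Synj1, Apobr and Shoc2 (each 0.05), and those nearest to Fcgr4 were the fatty acid binding protein gene Fabp5 (0.04), Thap4 and Tpcn2 (each 0.08). Fcer1g was nearest to Ube2d2a (0.03), Pdlim7 and Nup50 (each 0.04), and Tyrobp to the myosin light chain gene Myl12a, Chmp2a and Smarca5 (each 0.04). Syk was nearest to Baz2b, Wwp2 (each 0.06) and Tbc1d15 (0.07). Of these, 11.7% of Apobr exons lie opposite Cln3 and 10.6% of Thap4 exons opposite Gm10550, so their counts are uncertain. Rpl4, Myl12a and Ube2d2a are known to have close relatives or processed copies, so their counts are uncertain too. Sequence shared with other genes was not measured for any of these like-profile genes, so the same may hold for others among them.

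The wider pathway was read through 7 lists holding 102 genes, of which 92 were tested. In edgeR 0 of the 92 passed an adjusted p of 0.05; at an unadjusted p under 0.05, 18 were higher in hyperoxia (19.6%, against 9.1% of all genes) and 1 lower (1.09%, against 3.91%), and DESeq2 called 8 higher and 0 lower, where it called 3.14% of all genes higher and 0.273% lower. The filter fixes part of this lean: of the 18 higher genes, Blk, Cd247, Inppl1, Siglech and Vav2 reached its level of 0.225 CPM in all 3 hyperoxia libraries but in fewer than 3 normoxia libraries, so they were tested because they were high in hyperoxia. The genes were also divided by mean level, at limits chosen after the values were seen. Of 30 genes with at least 100 CPM, 0 had an unadjusted p under 0.05 in edgeR, with log2 differences between -0.65 and 0.35, and the share over all genes of that level was itself low, 2.7% higher and 2.61% lower. Of 29 genes with 10 to 100 CPM, 3 were higher and 1 lower (over all genes of that level, 4.78% and 6.31%). The other 15 higher genes were among the 33 under 10 CPM (45.45%, with 0 lower). Over all genes of that level the shares were 11.98% higher and 2.99% lower. The filter bears on genes of this level. Over all levels, 12 of the 18 higher genes reached its limit in all 6 libraries. These 12 include Lat2, Fcrls and Dok2, the 3 higher genes with 10 to 100 CPM. The cause of the lean was not tested.

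**Figure D5:**
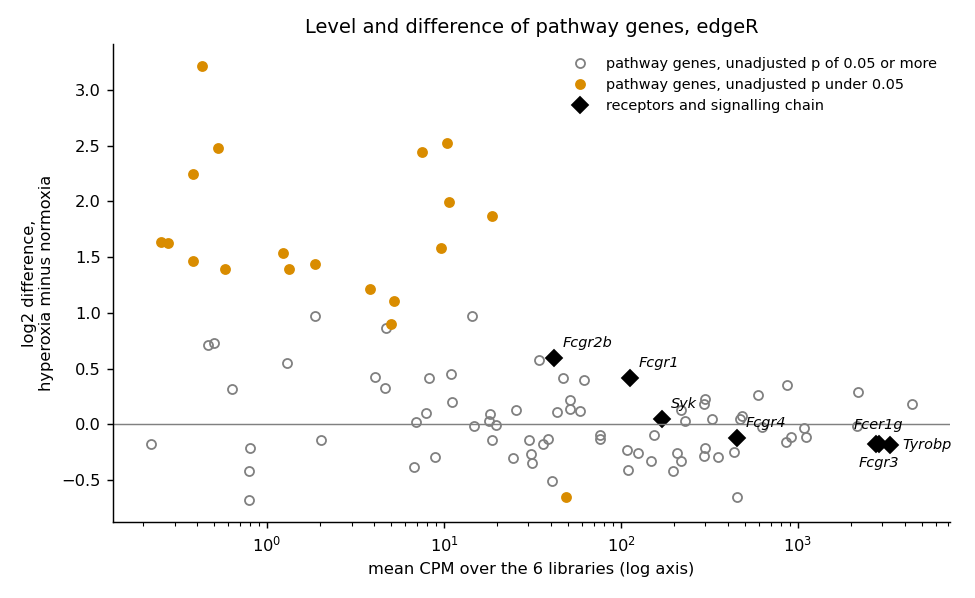
Log2 difference, hyperoxia minus normoxia, against mean CPM over the 6 libraries (log axis) for 92 pathway genes (circles, orange where the unadjusted p is under 0.05) and the 7 receptor and chain genes (diamonds). The 30 pathway genes at 100 CPM or more lie between -0.65 and 0.35, and the orange points lie at lower levels.

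Of 11 Src and Tec family kinases, all tested, 3 were higher at an unadjusted p under 0.05 in edgeR and 0 lower. The shares over all genes were 9.1% and 3.91%. The median log2 difference was 0.05, beside 0.04 over all genes, and DESeq2 called 0. Of the 3, Blk was tested because it was high in hyperoxia. Kinases known to start the signal in neutrophils were abundant: Fgr had a mean of 873 ± 93.5 CPM in hyperoxia against 943 ± 102 CPM in normoxia, and Lyn 478 ± 110.2 and 461 ± 74.1 (SD, n = 3 each), values chosen for their level. Among the kinases with the lowest p, Fyn and Blk were scarce: Fyn averaged 5.36 ± 2.50 CPM in hyperoxia and 2.31 ± 0.252 in normoxia, and the B cell kinase Blk 0.42 ± 0.0381 and 0.134 ± 0.0667.

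Of 13 adaptors and scaffold proteins, 2 were higher at an unadjusted p under 0.05 in edgeR and 1 lower, beside 9.1% and 3.91% of all genes. The median was 0.13, beside 0.04 over all genes. DESeq2 called 1 higher, where it called 3.14% of all genes higher and 0.273% lower. Lat2, a membrane adaptor of myeloid and B cells, stood at 20.2, 47.9 and 19.6 CPM in hyperoxia, against 9.58, 7.14 and 7.32 CPM in normoxia. On the log2 scale its difference was 1.87 ± 0.37 (SE), where edgeR gave an adjusted p of 0.125 and DESeq2 one of 0.00027; 36.3% of its exons lie opposite Rfc2, so its reads are uncertain. Sh3bp2, an adaptor that binds Syk, was the 1 lower gene, with 51.1, 34.7 and 28.6 CPM in hyperoxia and 69.0, 57.5 and 53.4 CPM in normoxia (adjusted p of 0.342 in edgeR). Gab3 had a mean of 6.54 ± 3.11 CPM in hyperoxia against 3.50 ± 0.958 CPM in normoxia.

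Of 18 enzymes and effectors downstream of Syk, 1 was higher at an unadjusted p under 0.05 in edgeR and 0 lower, beside 9.1% and 3.91% of all genes. That gene, Vav2, was tested because it was high in hyperoxia. The median was 0.13, beside 0.04 over all genes, and DESeq2 called 0. Rac2, the GTPase of the neutrophil oxidase, had a mean of 2160.1 ± 675 CPM in hyperoxia against 2176 ± 307 CPM in normoxia. The 3 lowest p values were those of Vav2 (0.378 ± 0.124 against 0.123 ± 0.0941 CPM), Malt1 (19.0 ± 14.7 against 9.67 ± 0.262 CPM) and the phospholipase gene Plcg2 (41.2 ± 21.9 against 27.5 ± 7.75 CPM). Malt1 had 35.1 CPM in the third hyperoxia library and 6.24 CPM in the second, on either side of normoxia.

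Of 15 inhibitors of the pathway, 3 were higher at an unadjusted p under 0.05 in edgeR and 0 lower, beside 9.1% and 3.91% of all genes. Of the 3, Inppl1 was tested because it was high in hyperoxia. The median was 0.05, beside 0.04 over all genes. DESeq2 called 1 higher, where it called 3.14% of all genes higher and 0.273% lower. The phosphatases that act with ITIM receptors did not pass: Inpp5d had 159.7, 70.8 and 108 CPM in hyperoxia, against 146, 144 and 115 CPM in normoxia, and Ptpn6, which encodes SHP-1, averaged 1062 ± 39.9 and 1149 ± 62.5 CPM. Dok2, an adaptor that restrains signalling in myeloid and T cells, stood at 10.5, 34.7 and 6.04 CPM in hyperoxia, against 5.20, 3.62 and 4.03 CPM in normoxia (adjusted p of 0.224 in edgeR and 0.00727 in DESeq2). Ptpn22, a phosphatase that acts on Src family kinases, averaged 7.16 ± 2.76 CPM in hyperoxia and 3.33 ± 0.204 in normoxia, and Inppl1, 18.8% of whose exons lie opposite Gm10602, 0.562 ± 0.0896 and 0.202 ± 0.121.

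Of 20 tested receptors that pair with Fcer1g or Tyrobp, 3 were higher at an unadjusted p under 0.05 in edgeR and 0 lower. The shares over all genes were 9.1% and 3.91%. Of the 3, Siglech was tested because it was high in hyperoxia. The median of the list was -0.11, beside 0.04 over all genes. DESeq2 called 3 higher, where it called 3.14% of all genes higher and 0.273% lower. Those known from neutrophils were the most abundant: Clec4e had a mean of 4657 ± 1554 CPM in hyperoxia against 4109 ± 274 CPM in normoxia, and Trem1 2410.4 ± 527 and 1968 ± 271 (adjusted p of 0.845 and 0.66 in edgeR). Trem2, a lipid receptor of macrophages that signals through Tyrobp, stood at 9.39, 14.1 and 19.9 CPM in hyperoxia, against 4.66, 5.12 and 4.68 CPM in normoxia (adjusted p of 0.106 in edgeR and 0.00027 in DESeq2). The NK cell receptor gene Klrk1 averaged 2.71 ± 0.967 and 0.997 ± 0.216 CPM, and Siglech, known from plasmacytoid dendritic cells and microglia, 0.893 ± 0.583 and 0.161 ± 0.0628 CPM. Oscar, Klra4 and Gp6 did not pass the filter.

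Of 14 other Fc receptors, 7 were tested, of which 3 were higher at an unadjusted p under 0.05 in edgeR and 0 lower. The shares over all genes were 9.1% and 3.91%. The median of the 7 was 0.32, beside 0.04 over all genes. DESeq2 called 2 higher, where it called 3.14% of all genes higher and 0.273% lower. Fcgrt, the neonatal receptor that recycles IgG, stood at 4.12, 13.5 and 20.3 CPM in hyperoxia, against 1.73, 2.31 and 2.93 CPM in normoxia. Fcrls, an Fc receptor-like gene known from microglia and macrophages, stood at 5.44, 15.2 and 32.2 CPM in hyperoxia, against 2.76, 3.22 and 3.21 CPM in normoxia. Both had an adjusted p of 0.14 in edgeR, with DESeq2 at 1.27e-04 and 9.49e-05, and both were highest in the third hyperoxia library, where MHC class II markers summed to 2078 CPM against 456 to 493 CPM in normoxia. Fcrla averaged 0.633 ± 0.487 and 0.132 ± 0.11 CPM. The IgE receptor genes Fcer1a and Ms4a2 did not pass the filter, and Ms4a2, a defining marker of mast cells and basophils, had 0 counts in all 6 libraries.

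Of 8 genes in the last list, which holds other immune receptors, signalling chains and integrins, 3 were higher at an unadjusted p under 0.05 in edgeR and 0 lower. The shares over all genes were 9.1% and 3.91%. The median of the list was 0.53, beside 0.04 over all genes. DESeq2 called 1 higher, where it called 3.14% of all genes higher and 0.273% lower. The 3 higher genes in edgeR were lymphocyte genes under 3 CPM: the T and NK cell chain Cd247 (0.771 ± 0.609 CPM in hyperoxia and 0.0818 ± 0.0627 CPM in normoxia), Cd79a (1.83 ± 1.10 and 0.63 ± 0.109 CPM) and Cd79b (1.92 ± 1.05 and 0.733 ± 0.198 CPM). Cd247, the gene that DESeq2 called, was tested in edgeR because it was high in hyperoxia. Of the Cd247 exons, 56.4% lie opposite Pou2f1, so its reads are uncertain. Integrin chains of the neutrophil did not pass, with Itgb2 at 970.1 ± 308 CPM in hyperoxia and 761 ± 129 CPM in normoxia, and Itgam at 313 ± 103 and 275 ± 52.9 CPM. The fungal receptor gene Clec7a averaged 319.6 ± 63.4 and 391 ± 56.3 CPM.

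Beside these lists, NK and T cell markers summed to 6.25 to 26.3 CPM in hyperoxia and 5.13 to 16.2 CPM in normoxia, mast cell and basophil markers to 3926 to 6249 and 3997 to 5093 CPM, and MHC class II and dendritic cell markers to 691 to 2078 and 456 to 493 CPM. At an unadjusted p under 0.05 in edgeR, 3 of 9 tested NK and T cell markers, 0 of 3 mast cell markers, 7 of 9 MHC class II markers, 4 of 6 B cell markers and 1 of 9 neutrophil markers were higher in hyperoxia, and none of these was lower. Over all tested genes those shares were 9.1% and 3.91%, close to that of the neutrophil markers. In the mast cell list Hdc held nearly all of the sum, with Mcpt4 and Mcpt8 at no more than 3 counts in any library. Cpa3, Tpsb2 and Cma1 had 42, 24 and 24 counts in the third hyperoxia library, and at most 10 counts in any other. Stromal and smooth muscle markers summed to 54.6 to 261 CPM in hyperoxia and 30.4 to 75.1 CPM in normoxia, with 7 of 8 tested higher at that threshold; epithelial markers summed to 10.4 to 186 and 62.1 to 137 CPM, with 0 of 5. Ciita, Flt3, Xcr1, Cd3e, Cd3g, Ms4a1 and Des reached the filter level in all 3 hyperoxia libraries but in fewer than 3 normoxia libraries. They were thus tested because they were high in hyperoxia, and the marker counts are fixed in part by the filter. Ncr1 passed by the same route, though its highest value, 1.77 CPM, was in a normoxia library. Itgam, Cd79a, Cd79b, Fcer1a and Ms4a2 stand in both a pathway list and a marker list. How far these cells contribute to the low-level pathway genes was not tested.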

How the data were processed

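For each of 6 libraries the authors deposited a file of raw, whole-number counts by Ensembl gene ID; per the labels' protocols, libraries came from an Ovation/NexteraXT kit. STAR 2.4.2a, DESeq2 1.16.1 and build GRCm38 are named in the submitters' processing notes. Which program counted reads, whether by strand, and on which annotation release is not given in the sources used here, so overlapping genes on opposite strands cannot be told apart. Symbols, coordinates and exon lengths came from GENCODE M21, which matched 42548 of 43432 IDs; unmatched IDs took up to 0.25% of counts in a library.

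Groups followed the labelled housing condition. Replicate numbers follow the order of deposition. No libraries agreed within sampling noise (chi-square per degree of freedom of at least 29.8). In R 4.3.3, edgeR 4.0.16 (filterByExpr, TMM, robust quasi-likelihood test, two-sided, Benjamini-Hochberg over 12908 genes) gave the differences, standard errors from the F statistic and 95% intervals. Alternatives were DESeq2 1.42.0, limma 3.58.1 (voom, also weighted by sample quality), other scalings and filters, a threshold of 0.1, and leaving out each library. The steps were tested on simulated data.

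The 7 genes and all lists were chosen with earlier results of these data known. Named genes are the 7 themselves, the 3 per list with the lowest p and, for each of the 7, the 3 with the nearest profile; abundant list genes named for their level, Inpp5d, Ptpn6, Clec7a and the integrin chains were chosen after their values were seen. Protein sequences were not used here. A few items, among them a gene that this rule names and an allele that both groups share, are not reported here.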

Additional observations from a re-analysis of the deposited data

How the results depend on the processing

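Over 14 refits, the 7 genes gave 98 log2 differences: 0 passed the threshold (lowest adjusted p of 0.155), 95 kept the sign of the edgeR value on all 6 libraries and 3 reversed. Fcgr4 reversed to 0.050 without hyperoxia replicate 3 and to 0.031 without normoxia replicate 1, within a leave-one-out range of -0.25 to 0.050. Syk reversed to -0.20 without hyperoxia replicate 1, within -0.20 to 0.25. The leave-one-out ranges were 0.25 to 0.72 for Fcgr1, 0.39 to 0.79 for Fcgr2b, -0.30 to -0.06 for Fcgr3, -0.22 to -0.08 for Fcer1g and -0.23 to -0.09 for Tyrobp.

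Over the whole table edgeR called 0 genes higher and 0 lower, with 1175 and 505 at an unadjusted p under 0.05. DESeq2 called 471 higher and 41 lower, limma-voom 0 and 0, limma-voom with sample quality weights 35 and 1, edgeR with no filter on low counts 205 and 9, and edgeR at a threshold of 0.1 called 28 and 2. Leaving out a library gave 0 to 164 higher and 0 to 12 lower, the highest of both without hyperoxia replicate 1. The cause was not tested. The share of Fcgr2b among the 4 receptors was 0.199 percentage points higher in hyperoxia per length and 0.672 when not divided by length, a scale on which the long Fcgr2b gene weighs more; leaving out a library gave 0.136 to 0.287. No paired analysis was possible because the labels give no shared replicate numbers. With 3 libraries per group, the standard errors of the 7 genes, which edgeR moderates over all genes, were 0.20 to 0.33.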
